A study of Homo sapiens with 24 samples.

Results

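Eph receptors are receptor tyrosine kinases, and ephrins are their ligands on the surface of neighbouring cells. The 10 genes described here were chosen by name from the deposited count table: the receptors EPHA1, EPHA2, EPHA4, EPHB2, EPHB3 and EPHB4 and the ligands EFNA1, EFNA4, EFNB1 and EFNB2. They are 10 of the 22 Eph and ephrin genes in the table, which lists 23368 genes in all. All 10 passed the filter on low counts. Their choice was made with earlier results of these data known.

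Messenger RNA was sequenced from AGS cells, an established line from a human gastric adenocarcinoma, 24 h after kinase inhibitors were added. The 24 libraries fall into 6 groups of 4 biological replicates. Control cells are labelled as having no treatment, and whether they received solvent is not given in the labels. PI103, which blocks PI3 kinase and mTOR, was given at 0.7 µM. PD0325901, which inhibits MEK, was given at 0.035 µM. (5Z)-7-oxozeaenol, which inhibits the kinase TAK1 and is called oxozeaenol below, was given at 0.5 µM. The other 2 groups received PI103 at 0.35 µM together with oxozeaenol at 0.25 µM, or PI103 at 0.35 µM together with PD0325901 at 0.0175 µM, so each agent was at 50% of what was used alone. Cells of all groups are labelled as wild type and come from 1 cell line, grown in Ham's F12 medium with serum. AGS is known to carry an activating mutation of the beta-catenin gene CTNNB1.

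Eph receptors and ephrins signal where cells touch. An ephrin on one cell clusters the Eph receptors of its neighbour, which starts forward signalling through the kinase domain, and the ephrin-bearing cell can receive a reverse signal. A-type ephrins are held in the membrane by a lipid anchor and bind mainly EphA receptors, whereas B-type ephrins span the membrane and bind mainly EphB receptors, with EPHA4 able to bind ligands of both types. In the intestine, EPHB2 and EPHB3 are known targets of beta-catenin with TCF and sort cells along the crypt axis, and EPHA2 is a known transcriptional target of the MAP kinase pathway that in turn dampens it when bound by EFNA1.

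The stretches upstream of 3 receptor genes are printed because the receptors moved in opposite directions: EPHA2, whose level fell in every treatment, and EPHB2 and EPHB3, whose levels rose in every treatment. They are read from RefSeq promoters of GRCh38.p14, 5′ to 3′ on the strand of the gene, and end before the first base of the gene's exons in GENCODE release 29. Capitals mark matches to the searched motifs, which were found on either strand.
EPHA2, chr1:16156088-16156319, minus strand: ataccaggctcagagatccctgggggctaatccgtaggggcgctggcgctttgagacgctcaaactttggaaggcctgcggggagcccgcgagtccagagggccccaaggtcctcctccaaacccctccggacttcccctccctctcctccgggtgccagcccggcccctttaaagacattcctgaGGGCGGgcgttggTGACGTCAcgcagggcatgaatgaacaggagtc
EPHB2, chr1:22710588-22710837, plus strand: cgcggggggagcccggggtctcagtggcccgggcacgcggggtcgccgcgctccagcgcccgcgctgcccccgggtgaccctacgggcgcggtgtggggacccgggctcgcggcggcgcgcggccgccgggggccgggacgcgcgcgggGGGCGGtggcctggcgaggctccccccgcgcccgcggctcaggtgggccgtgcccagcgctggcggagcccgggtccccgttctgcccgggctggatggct
EPHB3, chr3:184561535-184561783, plus strand: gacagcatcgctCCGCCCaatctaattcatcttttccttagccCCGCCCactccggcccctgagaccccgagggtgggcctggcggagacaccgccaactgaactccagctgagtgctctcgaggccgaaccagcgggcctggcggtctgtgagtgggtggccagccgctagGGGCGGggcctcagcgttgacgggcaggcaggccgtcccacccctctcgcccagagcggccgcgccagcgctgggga
The EPHA2 stretch holds the cAMP response element letters TGACGTCA, 51 to 44 bases before the RefSeq start, and 1 GC box. The EPHB2 stretch holds 1 GC box and the EPHB3 stretch 3. GC content was 63.8% upstream of EPHA2, 84.8% upstream of EPHB2 and 69.9% upstream of EPHB3, against a median of 58% over all promoters in the reference.

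In the 250 bases before the RefSeq starts, 9 motifs were searched on both strands: AP-1 (TGANTCA), the cAMP response element (TGACGTCA), ETS (CCGGAAG), the E-box (CACGTG), TCF (CTTTGAT), forkhead (GTAAACA), NF-kB, the composite site of ATF4 and C/EBP (TGATGNAA) and the GC box (CCGCCC). The GC box was present upstream of 10 of 10 members, and 42.6% of 35116 promoters hold it. The cAMP response element was present in 1 of 10, EPHA2, and 1.65% of promoters hold it. The other 7 motifs were not matched in any member's window. For comparison, TCF letters occur in 2.26% of promoters, ETS letters in 8.52% and AP-1 letters in 6.57%. Restricting the search to 150 bases gave the same member counts. For EFNA1 the whole window lies in the gene's own GENCODE exons. A match describes letters only, and the absence of these letters in this window says nothing about a factor.

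Counts assigned to genes ranged from 38057638 to 84226380 per library. Members were counted at 126 reads or more in every library, the lowest being EPHB3 in control cells. Levels are given as counts-per-million (CPM) of the scaled library size. Of 8 epithelial markers, 7 exceeded 1 CPM in every library, EPCAM lying between 620 and 988 CPM, while CLDN3 was at or under 0.0353 CPM. Of 9 markers of differentiated stomach cells, 2 or 3 exceeded 1 CPM, and GKN1, GIF and LIPF were at 0 in all 24 libraries. TFF1 lay between 3.72 and 17.5 CPM, PGC between 1.30 and 13.4 and CLDN18 between 0.0606 and 1.25. MUC6, TFF2 and ATP4A were at or under 0.275 CPM. The stomach list summed to 13.9 to 18.4 CPM in control, 8.46 to 11.8 with PI103 and 18.6 to 25.4 with PD0325901. It summed to 12.5 to 21.4 with oxozeaenol, 8.33 to 11.8 with PI103 and oxozeaenol and 10.8 to 16.7 with PI103 and PD0325901. The endothelial list summed to at most 0.479 CPM. The immune list summed to 38.7 to 49.3 CPM in control and 188 to 468 CPM across the treated groups. Nearly all of that sum was LYZ, at 37.7 to 466 CPM, which was called higher in all 5 treatments by log2 changes of 2.57 to 3.12. CD68, at 0.617 to 3.50 CPM, was called higher with PD0325901 (1.49) and with PI103 and PD0325901 together (0.995). The other 4 of the 6 immune markers, PTPRC and CD3E among them, did not pass the filter and stayed at or under 0.140 CPM. The fibroblast list summed to 14.3 to 17.4 CPM in control, 32.3 to 34.4 with PI103 and 8.18 to 25.8 in the other treated groups. Most of it was COL1A1, called higher with PI103 (1.15), PD0325901 (0.38) and both together (0.58) and lower with oxozeaenol (-0.77) and PI103 and oxozeaenol (-0.65), and COL1A2, DCN and THY1 were at or under 0.0176 CPM. COL3A1, at 0.0131 to 1.10 CPM, was called higher with PD0325901 (3.90), PI103 and oxozeaenol (2.53) and PI103 and PD0325901 (4.28). LUM and PDGFRB lay at or under 0.308 CPM, PDGFRB called lower in all treatments but PI103 alone, and LUM called lower with PI103 and higher with PD0325901 and with oxozeaenol. The part of these stomach, immune and fibroblast markers in any result below was not tested. In bulk RNA, fewer cells of a kind and less RNA per cell cannot be told apart.

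Every inhibitor treatment moved most members. A member was called changed at an adjusted p under 0.05 in edgeR's two-sided quasi-likelihood F test, fitted over 13947 genes and all 24 libraries. With PI103, 7 members rose and 1 fell, where 51.4% of all genes were called, 26.2% higher and 25.2% lower. With PD0325901, 5 rose and 3 fell, where 58.6% of genes were called, 28.7% higher and 29.9% lower. With oxozeaenol, 4 rose and 3 fell, where 51.9% of genes were called, 25.7% higher and 26.1% lower. Under PI103 and oxozeaenol together, 6 rose and 3 fell, where 55.6% of genes were called, 27.7% higher and 27.9% lower. Under PI103 and PD0325901 together, 6 rose and 2 fell, where 64.8% of genes were called, 32.2% higher and 32.6% lower. The share of members called, between 7 and 9 of 10, stands beside a background of more than 51% in each comparison, so the number called is not by itself a property of the family. The median log2 change over the members was 0.45, 0.34, 0.12, 0.33 and 0.42 in that order, and over all genes tested it lay between -0.02 and 0.02. Members were chosen with earlier results of these data known, and the other Eph and ephrin genes are left out of their median. The difference between these medians is therefore not read as a property of the family. The 5 comparisons share the 4 control libraries. All 40 calls had the same sign in each of the 4 batches that the labels name, and in 37 of them the treated and control libraries did not overlap. Over all genes, the 5 comparisons gave 39366 calls, of which 37406 had the same sign in each batch and 33150 (84.2%) had no overlap, so neither count is read as particular to the members.

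**Figure D1:**
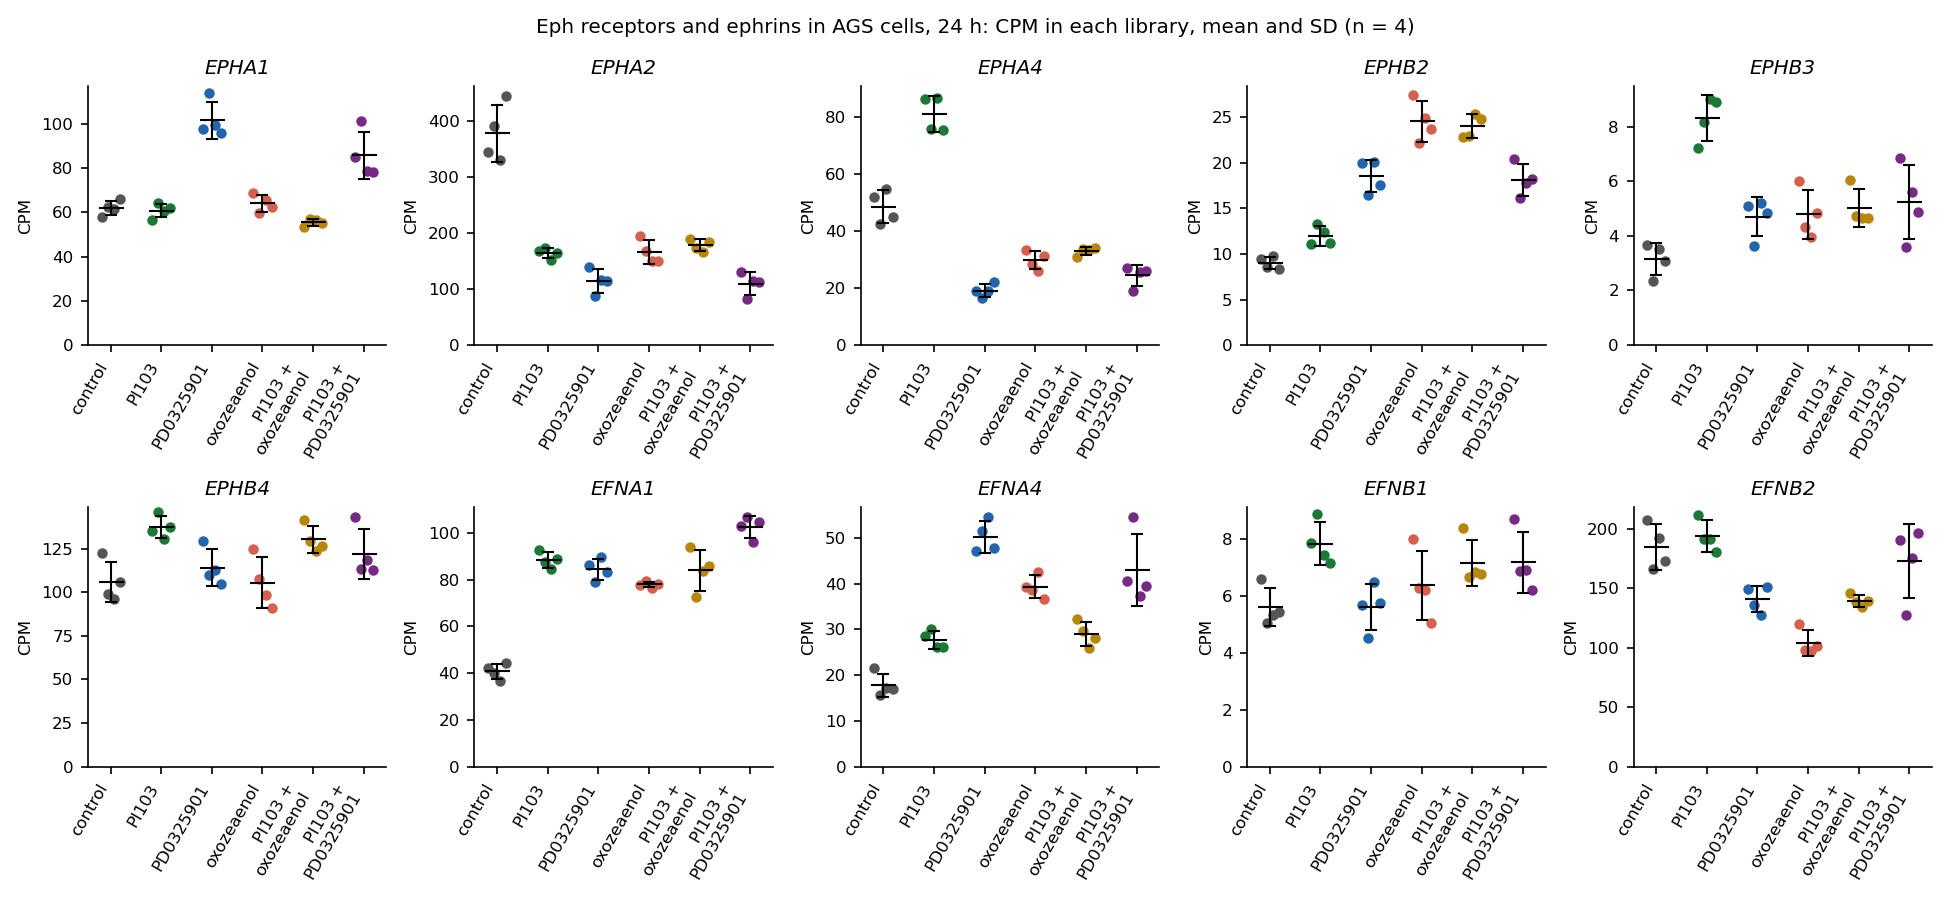
CPM of each of the 10 genes (vertical axis, starting at 0, 1 panel per gene) in the 4 libraries of each group (horizontal axis), with points for libraries and bars for the mean and SD. EPHA2 is lower and EFNA1, EFNA4 and EPHB2 are higher than control in all treated groups, while EPHA4 is above control with PI103 and below it in the other treated groups.

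EPHA2 was the member with the highest level in control cells and fell in all 5 treatments. The gene lies on chromosome 1 from 16124337 to 16156087 (GRCh38, minus strand). In control cells its 4 libraries held 346, 392, 331 and 445 CPM. With PI103 they held 169, 174, 152 and 164 CPM. With PD0325901 they held 139, 88.1, 117 and 115 CPM. Every treated library was thus below every control library, and the lowest value with PD0325901 was in replicate 2. With oxozeaenol the libraries held 195, 169, 149.8 and 149.6 CPM. PI103 with oxozeaenol gave 189, 174, 167 and 185 CPM. PI103 with PD0325901 gave 131, 82.8, 114 and 112 CPM. The groups treated with PD0325901, alone or in combination, lay below the other 3 treated groups without overlap.

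The log2 change of EPHA2 against control was -1.20 with PI103 (SE 0.13, edgeR adjusted p = 2.6e-08) and -1.19 with oxozeaenol (SE 0.13, adjusted p = 3.06e-08). It was -1.72 with PD0325901 (SE 0.13, adjusted p = 4.1e-11), which left 0.304 of the control level. The combinations gave -1.08 with oxozeaenol (adjusted p = 1e-07) and -1.78 with PD0325901 (adjusted p = 1.31e-11). PD0325901 lowered EPHA2 further than PI103 did, by a log2 difference of -0.52 (adjusted p = 0.00164 in edgeR), and further than oxozeaenol, by -0.53 (adjusted p = 0.00337). In those comparisons between single agents, 44.5% and 28.5% of all genes were called. PI103 and oxozeaenol were not separated for EPHA2, with a difference of 0.01 and a 95% interval of -0.24 to 0.26.

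EPHA4, the receptor that binds ligands of both types, was the member whose direction differed between agents. It spans 221418027 to 221574202 on chromosome 2 (minus strand). Control libraries held 52.0, 42.7, 54.8 and 45.1 CPM. With PI103 they held 86.5, 75.8, 86.7 and 75.5 CPM, all above control. With PD0325901 they held 19.1, 16.4, 19.1 and 22.2 CPM, all below it. Oxozeaenol alone gave 33.4, 28.5, 26.1 and 31.3 CPM, also below every control library. Both combinations fell on the side of the second agent. PI103 plus oxozeaenol gave 30.9, 33.9, 33.3 and 34.2 CPM. PI103 plus PD0325901 gave 27.1, 19.1, 25.6 and 26.0 CPM. No library of either combination reached the lowest control library.

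EPHA4 rose by a log2 change of 0.74 with PI103 (SE 0.11, edgeR adjusted p = 2.76e-06). It fell by 1.34 with PD0325901 (SE 0.11, adjusted p = 1.38e-10) and by 0.71 with oxozeaenol (SE 0.11, adjusted p = 5.87e-06). The direct contrast of PD0325901 with PI103 was -2.08 (adjusted p = 3.54e-13), the largest of any member among the 15 comparisons made. Oxozeaenol differed from PI103 by -1.44 (adjusted p = 1.41e-10), in a comparison where 43.1% of all genes were called. Between PD0325901 and oxozeaenol the difference was -0.64 (adjusted p = 0.000137). Of the gene's exon bases, 4.67% lie opposite an antisense gene, AC079834.2, and the sources used here do not say whether counting used strand.

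EPHA1, the remaining EphA receptor of the 10, on chromosome 7 from 143390289 to 143408892 (minus strand), rose in both groups that contained PD0325901 and was not called in the other 3 treated groups. Control libraries ranged from 58.2 to 66.1 CPM. PD0325901 gave 95.9 to 114 CPM, a log2 change of 0.71 (adjusted p = 3.67e-08, edgeR). With PI103 it gave 78.4 to 101 CPM, a change of 0.47 (adjusted p = 1.46e-05). PI103 alone gave 56.8 to 64.1 CPM and oxozeaenol alone 59.9 to 68.7 CPM, and both overlapped control. Their changes were -0.03 and 0.05, with 95% intervals of -0.19 to 0.13 and -0.11 to 0.21. Adding oxozeaenol to PI103 gave 53.5 to 57.2 CPM, below every control library. The change of -0.16 was not called (adjusted p = 0.102), though it was lower in 4 of 4 batches. PD0325901 exceeded PI103 by 0.74 (adjusted p = 4.52e-08) and oxozeaenol by 0.67 (adjusted p = 1.69e-06). EPHA1 shares 1.73% of its exon bases with ZYX on the opposite strand.

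Among the EphB receptors, EPHB2 rose in every treatment and most with oxozeaenol. It spans 22710839 to 22921500 on chromosome 1 (plus strand). Control libraries held 9.41, 8.59, 9.75 and 8.36 CPM. PI103 gave 11.1, 13.3, 12.4 and 11.2 CPM. PD0325901 gave 20.003, 16.5, 20.1 and 17.6 CPM. The PI103 libraries lay between control and PD0325901 without overlap on either side. Oxozeaenol gave 27.5, 22.2, 24.9 and 23.7 CPM. PI103 with oxozeaenol gave 22.8, 22.9, 25.4 and 24.8 CPM, within the range of oxozeaenol alone. Adding PD0325901 to PI103 gave 20.4, 16.1, 17.8 and 18.2 CPM, which overlapped PD0325901 alone.

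The log2 change of EPHB2 was 0.41 with PI103 (SE 0.094, edgeR adjusted p = 0.000763), 1.04 with PD0325901 (adjusted p = 8.32e-10) and 1.44 with oxozeaenol (adjusted p = 5.32e-12). Both combinations were called too, PI103 with oxozeaenol at 1.41 and PI103 with PD0325901 at 1.01. Oxozeaenol exceeded PI103 by 1.04 (adjusted p = 2.9e-09), and PD0325901 stood below oxozeaenol by a difference of -0.40 (adjusted p = 0.00206). The 3 single agents were therefore ordered PI103, PD0325901, oxozeaenol for this gene, with each step called.

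EPHB3, on chromosome 3 from 184561784 to 184582409 (plus strand), also rose in every treatment, but most with PI103. Control libraries held 3.66, 2.35, 3.53 and 3.10 CPM. PI103 gave 7.21, 8.15, 9.02 and 8.88 CPM, above all other libraries of the series. PD0325901 gave 5.10, 3.64, 5.19 and 4.85 CPM, where replicate 2 fell within the control range. Oxozeaenol gave 6.002, 4.33, 3.97 and 4.85 CPM. PI103 plus oxozeaenol gave 6.06, 4.73, 4.66 and 4.64 CPM. Both sets lay above control. PI103 with PD0325901 gave 6.83, 3.58, 5.61 and 4.89 CPM, where replicate 2 again overlapped control.

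EPHB3 changed by 1.39 with PI103 on the log2 scale (SE 0.18, edgeR adjusted p = 3.3e-07), or 2.62-fold. The changes were 0.57 with PD0325901 (adjusted p = 0.00747) and 0.60 with oxozeaenol (adjusted p = 0.00625). They were 0.67 (adjusted p = 0.00229) and 0.73 (adjusted p = 0.000782) for the combinations with oxozeaenol and with PD0325901. Both other single agents stood below PI103, PD0325901 by -0.82 (adjusted p = 0.000349) and oxozeaenol by -0.79 (adjusted p = 0.000644). EPHB2 and EPHB3 thus had opposite orders between PI103 and the other agents. Per kilobase of exon, the EPHB2 level over the EPHB3 level was 1.06 ± 0.18 in control (SD, n = 4), 0.525 ± 0.0593 with PI103 and 1.89 ± 0.268 with oxozeaenol.

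EPHB4, best known from endothelium but also made by epithelial tumours, was the most abundant EphB receptor and moved little. The gene lies on chromosome 7 from 100802565 to 100827521 (minus strand). Control libraries ranged from 96.3 to 122 CPM and PI103 libraries from 131 to 146 CPM, a log2 change of 0.37 (adjusted p = 0.00248, edgeR). Adding oxozeaenol to PI103 gave 124 to 142 CPM, a change of 0.30 (adjusted p = 0.0118). PD0325901 gave 105 to 129 CPM and oxozeaenol 91.0 to 125 CPM, both overlapping control. Their changes of 0.11 and -0.01 had 95% intervals of -0.09 to 0.30 and -0.20 to 0.19. PI103 plus PD0325901 gave 113 to 143 CPM and a change of 0.20 that was not called (adjusted p = 0.072), whereas the fit with batch as a block called it (adjusted p = 0.0148). PD0325901 stood below PI103 by -0.27 (adjusted p = 0.0293), a call lost in 5 of 14 alternatives, each leaving out 1 library (replicate 2 or 4 of PI103, or replicate 2, 3 or 4 of PD0325901). Oxozeaenol stood below PI103 by -0.38 (adjusted p = 0.00301). SLC12A9 overlaps 1.07% of the exon bases on the opposite strand.

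**Figure D2:**
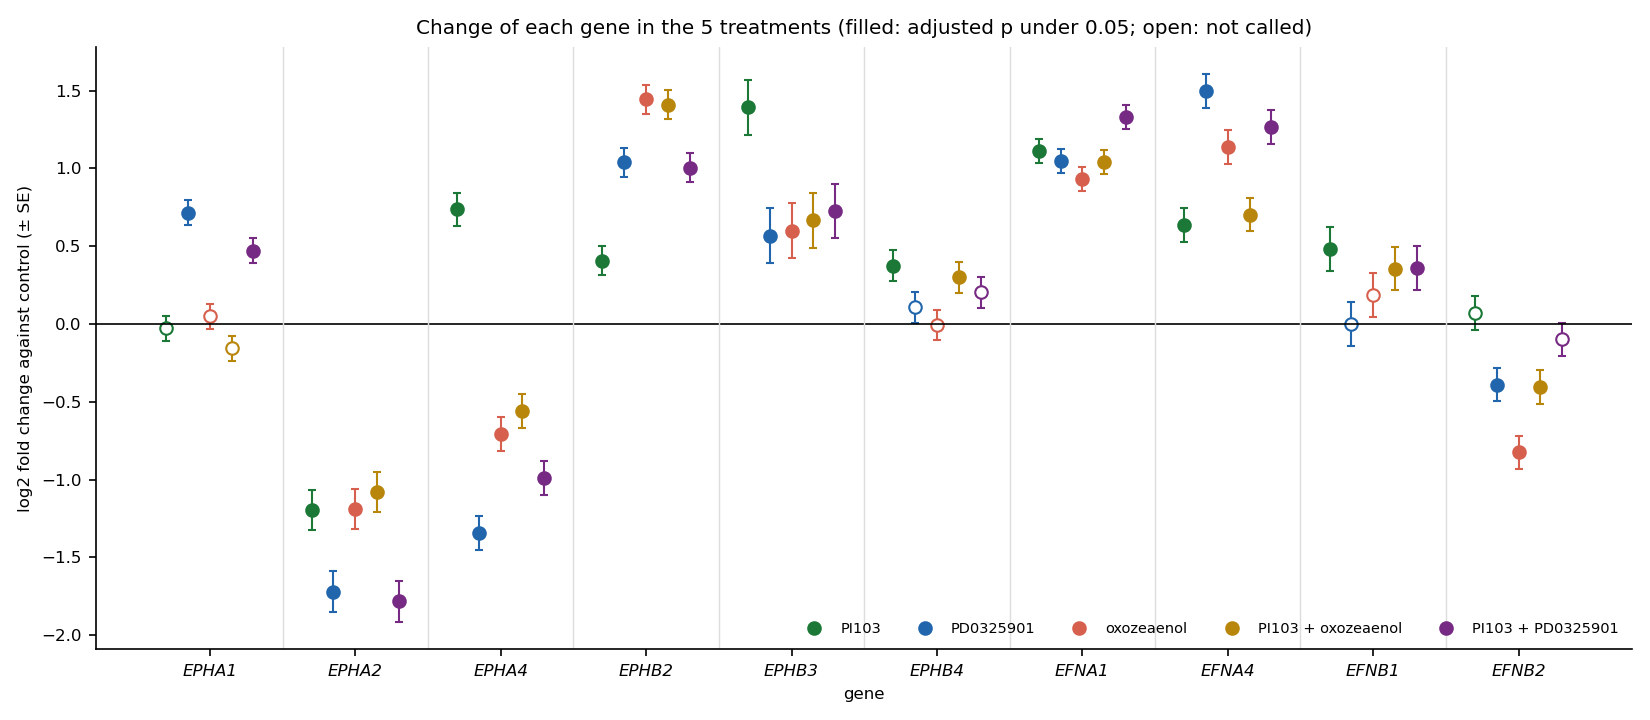
Log2 fold change against control (vertical axis) of each gene (horizontal axis) in the 5 treatments, with bars for the SE, filled points for an edgeR adjusted p under 0.05 and open points for the rest. EPHA2 lies between -1.08 and -1.78, EFNA1 between 0.93 and 1.33, and EPHA4 has both signs.

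EFNA1, the principal ligand of EPHA2, rose in all 5 treatments. It spans 155127460 to 155134857 on chromosome 1 (plus strand). Control libraries held 42.2, 40.2, 36.8 and 44.3 CPM. PI103 gave 92.8, 87.4, 84.4 and 88.8 CPM. PD0325901 gave 86.1, 78.9, 89.6 and 83.5 CPM. All of these were above every control library. Oxozeaenol gave 77.6, 79.5, 76.5 and 78.2 CPM. PI103 with oxozeaenol gave 93.8, 72.7, 83.8 and 85.9 CPM. Adding PD0325901 to PI103 gave 103, 107, 96.1 and 105 CPM, above all other libraries of the series.

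The log2 change of EFNA1 was 1.11 with PI103 (SE 0.077, edgeR adjusted p = 1.35e-11), 1.05 with PD0325901 (adjusted p = 1.99e-11) and 0.93 with oxozeaenol (adjusted p = 3.01e-10). It was 1.04 with PI103 and oxozeaenol together and 1.33 with PI103 and PD0325901 together (adjusted p = 2.25e-13). PD0325901 and PI103 were not separated, with a difference of -0.06 and a 95% interval of -0.21 to 0.08. Oxozeaenol stood -0.18 from PI103 (adjusted p = 0.0556), and the fit with batch as a block called that difference (adjusted p = 0.0371). PD0325901 and oxozeaenol differed by 0.12, with an interval of -0.03 to 0.26.

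EFNA4, a further A-type ligand, also rose in all 5 treatments, with unequal sizes. It lies on chromosome 1 from 155063731 to 155069553 (plus strand), in a row with EFNA3 and EFNA1. Control libraries held 21.5, 15.6, 17.3 and 17.0 CPM. PI103 gave 28.6, 30.2, 26.1 and 26.2 CPM. PD0325901 gave 47.2, 51.5, 54.7 and 47.7 CPM. The PI103 range lay between those of control and PD0325901 without overlap. Oxozeaenol gave 39.4, 38.7, 42.6 and 36.6 CPM. PI103 plus oxozeaenol gave 32.3, 29.7, 26.0 and 28.1 CPM, below every library of oxozeaenol alone. PI103 with PD0325901 gave 40.7, 54.6, 37.2 and 39.4 CPM, with replicate 2 the highest.

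The log2 change of EFNA4 was 0.64 with PI103 (SE 0.11, edgeR adjusted p = 2.25e-05), 1.49 with PD0325901 (adjusted p = 2e-11) and 1.14 with oxozeaenol (adjusted p = 3.87e-09). Together with PI103, oxozeaenol gave 0.70 and PD0325901 gave 1.27. The single agents differed from one another in each pair. PD0325901 exceeded PI103 by 0.86 (adjusted p = 4.15e-07) and oxozeaenol by 0.36 (adjusted p = 0.0146), and oxozeaenol exceeded PI103 by 0.50 (adjusted p = 0.000523). A readthrough gene of EFNA4 and EFNA3, AL691442.1, overlaps 14.96% of the exon bases of EFNA4 on the same strand, so reads there cannot be told apart.

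Of the B-type ligands, EFNB2 fell with PD0325901, with oxozeaenol and with PI103 and oxozeaenol together. It spans 106489731 to 106535662 on chromosome 13 (minus strand) and is best known as the partner of EPHB4 in vessels. Control libraries held 208, 166, 193 and 173 CPM. PI103 gave 212, 192, 192 and 180.5 CPM, overlapping control. PD0325901 gave 149, 136, 128 and 151 CPM. Every PD0325901 library was below every control library. Oxozeaenol gave 120.4, 98.0, 97.2 and 102 CPM. Adding oxozeaenol to PI103 gave 146, 139, 134 and 139 CPM, between oxozeaenol alone and control. PI103 plus PD0325901 gave 191, 128, 176 and 196 CPM, where replicate 2 stood below the control range and the others within it.

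EFNB2 fell by 0.39 on the log2 scale with PD0325901 (SE 0.11, edgeR adjusted p = 0.00281) and by 0.82 with oxozeaenol (adjusted p = 5.31e-07). For PI103 with oxozeaenol the change was -0.41 (adjusted p = 0.0022). With PI103 it was 0.07, with a 95% interval of -0.14 to 0.28, and for PI103 with PD0325901 it was -0.10, with an interval of -0.30 to 0.11. Oxozeaenol stood below PI103 by -0.90 (adjusted p = 2.75e-07), and PD0325901 stood below PI103 by -0.46 (adjusted p = 0.000958). An antisense gene, AL138689.2, lies opposite 26.2% of the exon bases of EFNB2, the largest overlap of any member.

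EFNB1, whose loss causes a craniofacial syndrome in humans, was low in all groups and was called higher than control only where PI103 was present. The combinations were not called against their second agent alone in edgeR. PI103 with oxozeaenol differed from oxozeaenol by 0.17 (adjusted p = 0.449). PI103 with PD0325901 differed from PD0325901 by 0.36 (adjusted p = 0.0729), which the fit with batch as a block called (adjusted p = 0.0327). The gene lies on chromosome X from 68828997 to 68842147 (plus strand). Control libraries ranged from 5.07 to 6.61 CPM and PI103 libraries from 7.17 to 8.90 CPM, a log2 change of 0.48 (adjusted p = 0.0052, edgeR). PI103 with oxozeaenol gave 6.68 to 8.38 CPM, a change of 0.35 (adjusted p = 0.033), which was lost in 5 of 14 alternatives, 4 of them leaving out replicate 1 of that combination or replicate 2, 3 or 4 of control (highest adjusted p = 0.133). Adding PD0325901 to PI103 gave 6.22 to 8.72 CPM, overlapping control. Its change of 0.36 (adjusted p = 0.0261) was lost without replicate 1 of that combination or replicate 2, 3 or 4 of control (highest adjusted p = 0.132). PD0325901 and oxozeaenol alone gave changes of 0.00 and 0.19 that were not called, with intervals of -0.27 to 0.28 and -0.09 to 0.46. PD0325901 stood below PI103 by -0.48 (adjusted p = 0.00645). Oxozeaenol stood -0.30 from PI103 (adjusted p = 0.089), a difference that the fit with batch as a block called (adjusted p = 0.0312).

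The single agents were also compared with one another across all members. PD0325901 against PI103 called 9 members, 3 higher and 6 lower, where 44.5% of all genes were called, 22.9% higher and 21.7% lower. Oxozeaenol against PI103 called 6, 2 higher and 4 lower, where 43.1% of genes were called, 22.5% higher and 20.6% lower. PD0325901 against oxozeaenol called 6, 3 higher and 3 lower, where 28.5% of genes were called, 15.1% higher and 13.4% lower.

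Levels of different genes were compared per kilobase of exon, using the union of GENCODE exons. In control cells EPHA2 stood first at 90.9 ± 12.4 CPM per kb (SD, n = 4), followed by EFNB2 at 36.8 ± 3.79. EPHB4, EFNA1, EFNA4 and EPHA1 followed at 16.5, 16.1, 14.1 and 13.1 CPM per kb, and neighbours in that order overlapped. EPHA4 at 6.44, EFNB1 at 1.69, and EPHB2 and EPHB3 at 0.721 and 0.697 CPM per kb closed the order, EPHB2 and EPHB3 overlapping each other. With PI103 the first 3 were EPHA2, EFNB2 and EFNA1 at 39.7, 38.7 and 34.8 CPM per kb, each overlapping the next. With PD0325901 EFNA4 stood first at 39.8 and EFNA1 followed at 33.3, without overlap. With PI103 and PD0325901 together EFNA1 stood first at 40.4 CPM per kb but overlapped EFNB2 at 34.4, which overlapped EFNA4 at 34.0, while EPHA2 remained first with oxozeaenol and with PI103 and oxozeaenol together. Ranks shift with the exon length used, and with the longest transcript EFNA1 rather than EPHA2 stood first under PI103.

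The makeup of the 10 members changed with treatment. The 4 ligands summed here leave out EFNA2 and EFNA3. These stood at 3.49 and 3.44 CPM per kb in control, above EFNB1 at 1.69. With the single agents EFNA2 stood at 6.20 to 11.7 CPM per kb and EFNA3 at 5.34 to 9.96. EPHA2 held 70.6% ± 3.09 (SD, n = 4) of the summed level per kb of the 6 receptors in control cells. Its share was 45.4% ± 1.29 with PI103, 38.2% ± 4.45 with PD0325901 and 51.8% ± 1.31 with oxozeaenol. It was 52.1% ± 1.13 and 37.9% ± 4.40 in the combinations with oxozeaenol and with PD0325901. No treated library reached the control range. The A-type ligands EFNA1 and EFNA4 held 44.0% ± 2.05 of the summed level of the 4 ligands in control. They held 58.1% ± 1.20 with PI103, 71.0% ± 2.40 with PD0325901 and 73.2% ± 2.20 with oxozeaenol. The summed level of the 6 receptors over that of the 4 ligands went from 1.88 ± 0.274 in control to 0.894 ± 0.0371 with PI103, 0.699 ± 0.0499 with PD0325901 and 0.907 ± 0.0736 with oxozeaenol. EPHA2 stood 5.64 ± 0.507 times as high as its ligand EFNA1 in control, and 1.14 ± 0.0528 times with PI103, 0.827 ± 0.125 with PD0325901 and 1.30 ± 0.166 with oxozeaenol. For PI103 with PD0325901 that ratio was 0.657 ± 0.133. The ratio of EPHB4 to EFNB2 moved less, from 0.449 ± 0.0401 in control to 0.789 ± 0.0659 with oxozeaenol. These shares and ratios follow from the levels above and were not tested separately. They also depend on the exon length used, which their SDs leave out. By the longest transcript, EPHA2 and EFNA1 stood at 95.4 and 21.2 CPM per kb in control. With PI103 they stood at 41.6 and 45.9 by that length, and with oxozeaenol at 41.8 and 40.5.

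**Figure D3:**
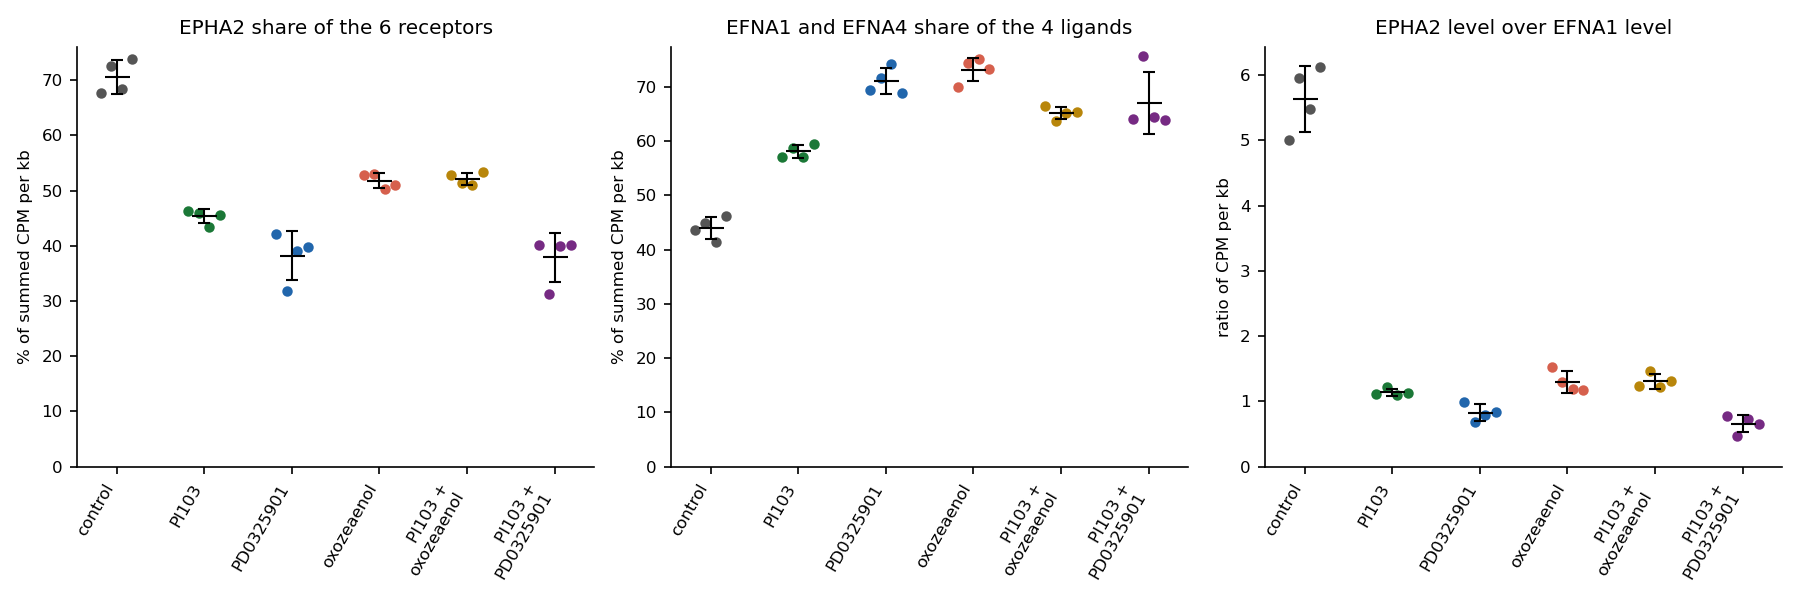
Share of EPHA2 in the summed level of the 6 receptors (left, percent), share of EFNA1 and EFNA4 in that of the 4 ligands (middle, percent) and ratio of EPHA2 to EFNA1 (right), all from CPM per kb, in the 4 libraries of each group with mean and SD. EPHA2 goes from 70.6% of the receptors in control to 37.9% with PI103 and PD0325901 together.

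The combinations were set against their single agents, although concentrations differed, each agent being at 50% of its amount alone. Against PI103 alone, PI103 with oxozeaenol called 4 members, 1 higher and 3 lower, where 18.3% of all genes were called, 9.39% higher and 8.92% lower. EPHA4 was lower by -1.29 (adjusted p = 2.98e-09, edgeR), EPHB3 by -0.72 and EFNB2 by -0.48, and EPHB2 was higher by 1.00. Against oxozeaenol alone it called 3 members, 2 higher and 1 lower, where 14.9% of genes were called, 7.59% higher and 7.28% lower. EPHB4 was higher by 0.31 (adjusted p = 0.0362), a call lost in 8 of 14 alternatives, among them the omission of any library but oxozeaenol replicate 1. EFNB2 was higher by 0.42 (adjusted p = 0.00903) and EFNA4 lower by -0.44 (adjusted p = 0.00734). EPHA1 stood -0.21 from oxozeaenol (adjusted p = 0.0851), which the fit with batch as a block called (adjusted p = 0.0487).

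PI103 with PD0325901 called 7 members against PI103 alone, 4 higher and 3 lower, where 38.7% of all genes were called, 18.8% higher and 19.9% lower. EPHA4 was lower by -1.73 (edgeR adjusted p = 1.01e-11), EPHB3 by -0.66 and EPHA2 by -0.58. EFNA4 was higher by 0.63, EPHB2 by 0.60 and EPHA1 by 0.50. EFNA1 was higher by 0.22 (adjusted p = 0.025), a call lost without replicate 2 or 3 of PI103 or replicate 2 or 4 of the combination. EPHB4 stood -0.17 from PI103 (adjusted p = 0.178), which the fit with batch as a block called (adjusted p = 0.0436). Against PD0325901 alone the combination called 3 members, 2 higher and 1 lower, where 18.1% of genes were called, 8.06% higher and 10.0% lower. EFNA1 was higher by 0.28 (adjusted p = 0.0117), EPHA4 higher by 0.35 (adjusted p = 0.0265) and EPHA1 lower by -0.24 (adjusted p = 0.0361). That count is not firm. It was 0 when only the groups compared were fitted, and 5 with batch as a block, which added EFNB1 (0.36, adjusted p = 0.0327 with the block) and EFNB2 (0.29, adjusted p = 0.0187 with the block). Leaving out libraries gave 1 without replicate 1, 3 or 4 of the combination or replicate 2 or 3 of PD0325901, and 5 without replicate 2 of the combination.

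**Figure D4:**
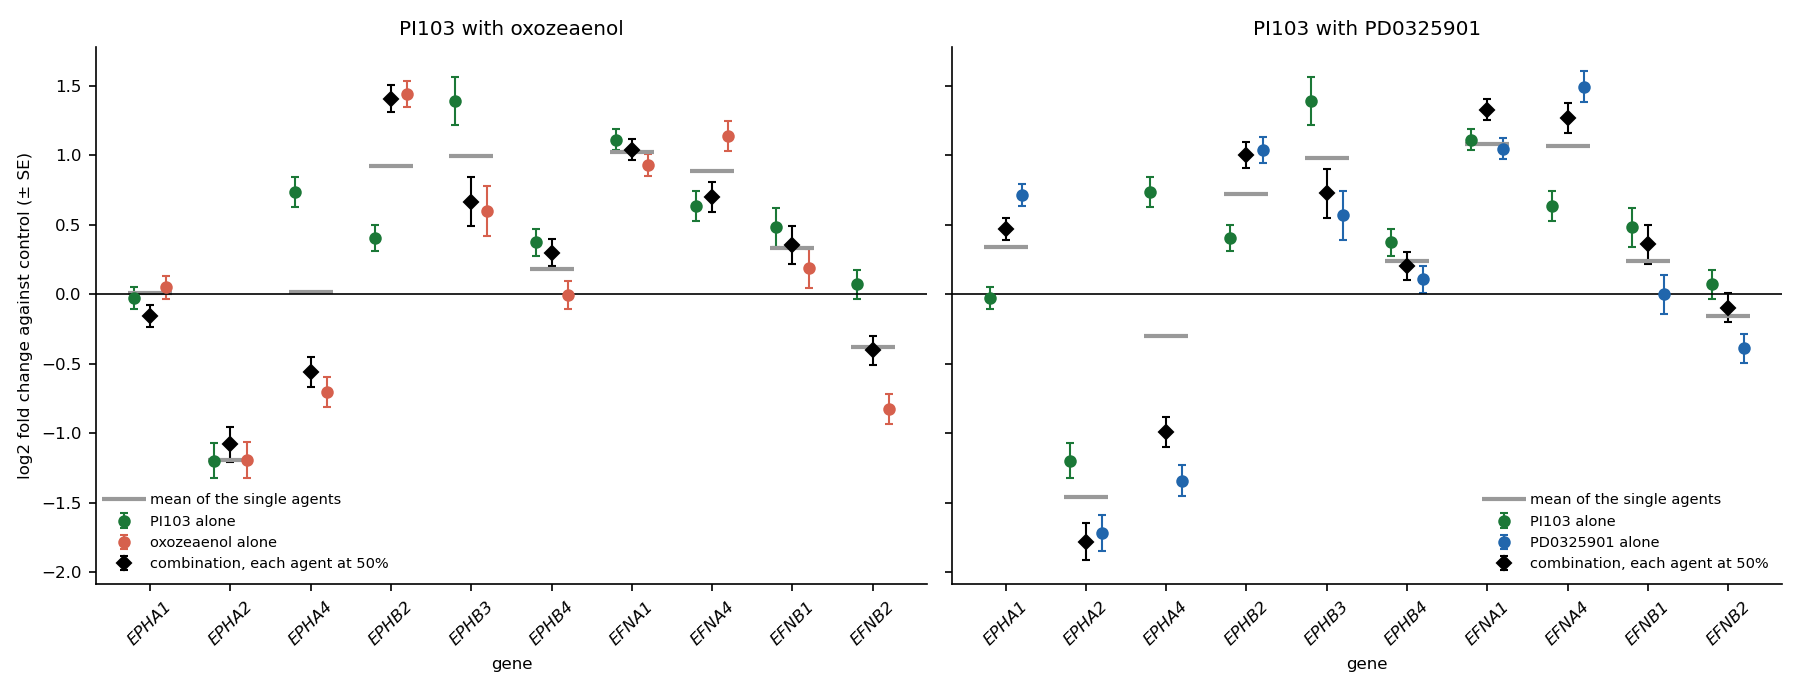
Log2 fold change against control (vertical axis, ± SE) of each gene (horizontal axis) for PI103 with oxozeaenol (left) and PI103 with PD0325901 (right), with each single agent at full concentration and a grey bar at the mean of the single agents. EPHA4 lies below the grey bar and EPHB2 above it in both panels.

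Against the mean of the log2 changes of the single agents, 2 members were called for PI103 with oxozeaenol, where 3.98% of all genes were called, 2.88% higher and 1.10% lower. EPHA4 lay below the mean by -0.57 (SE 0.096, edgeR adjusted p = 0.000481) and EPHB2 above it by 0.48 (SE 0.079, adjusted p = 0.000353), both with the same sign in 4 of 4 batches. Against oxozeaenol alone, EPHA4 in the combination differed by 0.15 (interval -0.06 to 0.36) and EPHB2 by -0.03 (interval -0.21 to 0.15). For PI103 with PD0325901, 4 members were called, where 22.0% of genes were called, 10.8% higher and 11.1% lower. EPHA4 lay below the mean by -0.69 (adjusted p = 1.69e-05), EPHB2 above it by 0.28 (adjusted p = 0.0129) and EFNA1 above it by 0.25 (adjusted p = 0.00778). The EPHB2 call was lost without replicate 1 of the combination (adjusted p = 0.0683). EPHA2 lay below the mean by -0.32 (adjusted p = 0.0391), a call lost in 10 of 18 alternatives, 8 of which left out 1 library (replicate 1 or 2 of PI103, replicate 1, 3 or 4 of PD0325901, or replicate 2, 3 or 4 of the combination).

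Between the combinations, 7 members differed, 4 higher and 3 lower with PD0325901, where 29.9% of all genes were called, 14.3% higher and 15.6% lower. With PD0325901 in place of oxozeaenol, EPHA2 was lower by -0.70 (edgeR adjusted p = 0.000217), EPHA4 by -0.43 and EPHB2 by -0.40. EPHA1 was higher by 0.63 (adjusted p = 3.81e-06), EFNA4 by 0.57 and EFNA1 by 0.29. EFNB2 was higher by 0.31 (adjusted p = 0.0299) in 3 of 4 batches, with overlapping groups, and lost its call in 7 of 14 alternatives (without replicate 1, 3 or 4 of PI103 with PD0325901 or replicate 2, 3 or 4 of PI103 with oxozeaenol, and with only the groups compared).

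Of the 12 other Eph and ephrin genes, 5 passed the filter and 7 did not. Those 7, EPHA3, EPHA5, EPHA6, EPHA7, EPHA8, EPHB1 and EFNB3, stayed at or under 0.302 CPM in every library. Among the 5 tested, 4 rose and 0 fell with each single agent and with PI103 and PD0325901 together, and 3 rose with PI103 and oxozeaenol together. In the same comparisons, 25.7% to 32.2% of all genes were called higher, and 51.4% to 64.8% were called in either direction. Only 5 genes were tested here, and they were not tested as a set. EFNA2, an A-type ligand, changed by 1.74 with PI103, 1.15 with PD0325901 and 0.84 with oxozeaenol, from 3.31 ± 0.149 CPM in control (SD, n = 4). EFNA3, the neighbour of EFNA4, changed by 0.80, 1.53 and 0.63 in the same order, and 44.7% of its exon bases lie in the readthrough gene AL691442.1. EPHA10, a receptor without kinase activity, changed by 1.18, 1.01 and 1.49, from 0.748 ± 0.109 CPM. EFNA5 changed by 1.53 with PD0325901 and 2.17 with oxozeaenol, from 0.371 ± 0.207 CPM, and its value of 0.82 with PI103 was not called (adjusted p = 0.0902, edgeR). Its oxozeaenol libraries held 1.37, 1.01, 0.823 and 3.60 CPM, and without replicate 4 the change was 1.503 (adjusted p = 0.000494). Without replicate 3 of control the PI103 value became 1.30 and was called (adjusted p = 0.0133). EPHB6, also without kinase activity, rose with PI103 by 1.35 from 0.254 ± 0.0782 CPM and was not called in the other treatments. Its value of -0.73 with oxozeaenol became -1.38 and was called without replicate 1 of that group (adjusted p = 0.0134, edgeR).

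Signalling partners of the family were counted in 5 lists by role, beside 51.4% of all genes called with PI103, 58.6% with PD0325901 and 51.9% with oxozeaenol. Adaptors and phosphatases of the receptors, 19 tested of 21, had 2 rises and 7 falls with PI103, 5 and 6 with PD0325901, and 4 and 9 with oxozeaenol. GRB10, an adaptor that binds receptor kinases, fell by 1.72 with PI103, and PTPRF, a receptor phosphatase, rose by 0.87. CBLB, a ubiquitin ligase of receptor kinases, fell by 0.90 with oxozeaenol. Kinases of the SRC and ABL families, 9 tested of 10, had 1 rise in each single agent, with 4, 4 and 6 falls. ABL2 fell by 0.69 with PD0325901 and YES1 fell by 0.42 with PI103. Exchange factors and related regulators of small GTPases, 17 tested of 19, had 7 rises and 2 falls with PI103, 6 and 6 with PD0325901, and 4 and 7 with oxozeaenol. TIAM1, an exchange factor for RAC that binds EPHA2, fell by 3.17 with PD0325901 and by 1.89 with oxozeaenol, and its value of 0.43 with PI103 was not called (adjusted p = 0.166). VAV2, an exchange factor recruited by Eph receptors, rose by 0.53, 0.38 and 0.70. Partners on the ephrin side, 8 tested of 9, had 3 rises and 3 falls with PI103, and PTPN13, a phosphatase that binds B-type ephrins, fell by 2.16 there. Proteases that shed ephrins or receptors, 9 tested of 10, had 6 rises and 1 fall with PD0325901, where MMP14 rose by 1.19, and ADAM17 fell by 0.65 with PI103. With PI103, 26.2% of all genes rose and 25.2% fell, with PD0325901 28.7% and 29.9%, and with oxozeaenol 25.7% and 26.1%. Some lists were uneven beside these shares. The SRC and ABL kinases had 1 rise and 6 falls of 9 tested with oxozeaenol, and the proteases 6 rises and 1 fall of 9 with PD0325901. Others, such as the exchange factors with PD0325901, had as many rises as falls. The lists are short and were not tested as sets, so nothing particular to them is read from the counts. The medians of these lists lay between -0.28 and 0.42 for the single agents, against -0.02 to 0.02 for all genes.

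Outputs of the pathways known to act on the family were counted as well. Of 11 targets and feedback genes of ERK tested, 7 fell and 1 rose with PI103, where 25.2% of all genes fell and 26.2% rose. With each of the other 4 treatments 10 fell, and 1 rose with PI103 and PD0325901 together, where 26.1% to 32.6% of all genes fell. Their median log2 change was -1.37 with PI103, -4.10 with PD0325901 and -1.74 with oxozeaenol, and -1.45 and -4.06 in the combinations with oxozeaenol and with PD0325901. DUSP6, a phosphatase of ERK, fell by 1.43, 5.18 and 2.54 with the single agents. In the same groups EPHA2 stood at -1.20, -1.72 and -1.19. Of 11 targets of beta-catenin tested, which do not include members, 8 rose and 0 fell with PI103, where 26.2% of all genes rose and 25.2% fell, the median being 0.73. With PD0325901 and with oxozeaenol, 3 rose and 4 fell, beside 58.6% and 51.9% of all genes called, with medians of -0.16 and -0.10. NKD1, a feedback inhibitor of WNT signalling, changed by 1.15, -0.996 and -1.17. Beside it EPHB3 changed by 1.39, 0.57 and 0.60, and EPHB2 by 0.41, 1.04 and 1.44. Whether either pathway had a part in the changes of the members was not tested.

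For the 6 members with a change of at least 1 against control, the non-member genes most alike were found by the root-mean-square difference over the 5 log2 changes, which share their control libraries. RIOK1 and SOWAHC were closest to EPHA2, at 0.16 and 0.17. DPYSL2 and GRK5 were closest to EPHA4, at 0.22 and 0.23. MDK and LRRC26 were closest to EPHB2, at 0.17 and 0.18, and FLJ23867 and TRIM29 to EPHB3, at 0.15 and 0.20. FAM115A and PIN4 were closest to EFNA1, at 0.11 each, and C14orf1 and DNAH6 to EFNA4, at 0.14 each.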

How the data were processed

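The deposited table holds raw read counts per gene symbol for 24 RNA-seq libraries made by the authors with a stranded mRNA kit, per the labels' protocols. The build is GRCh38, per the submitters' processing notes. The aligner, counting program and annotation are not given in the sources used here. Rows that name no gene were left out: no feature (4.24% to 8.57% of reads), ambiguous (1.57% to 2.01%) and not unique (4.64% to 6.06%). Groups were taken from sample titles.

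Genes were filtered with filterByExpr, scaled by TMM and fitted in edgeR 4.0.16 (R 4.3.3; robust quasi-likelihood, 1 coefficient per group over all libraries), and 15 contrasts were tested two-sided with Benjamini-Hochberg adjustment over 13947 genes. Adjusted p-values are from this test where no other is named. SE was computed as the log2 change (absolute) over the root of the F statistic. Batch equals the replicate number in the labels and so pairs the samples. Deviations from group means had a mean correlation of 0.12 over 60 pairs of the same number, positive in 47, and -0.04 over 180 other pairs. The main fit has no block. Replicates differed by more than counting noise in every group. P-values measure the spread between replicate cultures of 1 line.

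CPM were computed from the deposited counts with TMM-scaled totals. Exon lengths, overlaps and coordinates come from GENCODE release 29, and upstream sequences from RefSeq. The script was tested on simulated data. Alternatives were RLE and upper-quartile scaling, DESeq2 1.42.0, no filter, the block, only the groups compared, and each library left out, which for the 5 other family genes was added after seeing the data. All 10 members were named in full. Genes of the 5 signalling lists were picked by size of change, at an adjusted p under 0.05 and a mean of at least 5 CPM. That minimum level also held for the most alike genes, but not for cell markers or the other Eph and ephrin genes. The members and lists were chosen with earlier results of these data known.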

Additional observations from a re-analysis of the deposited data

Results flagged for a closer look

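In each of the 60 sets of 4 libraries (10 genes in 6 groups), the gap between the highest or lowest library and its nearest neighbour was set against the whole range and with Dixon's critical value at the 95% level. Chance flags about 1 in 20 such sets, or 3 here, and 2 were found, both in replicate 1 of PI103 with oxozeaenol. EPHB3 stood at 6.06 CPM there, with the other 3 libraries between 4.64 and 4.73 CPM. EFNB1 stood at 8.38 CPM, with the others between 6.68 and 6.85 CPM.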

How the results depend on the processing

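Of the 50 member results against control, 47 kept their side of the threshold in all alternatives, and of all 150 results 130 did. No called result changed direction, whereas 18 of the 150, all uncalled, had values on both sides of 0, 4 of them against control. The count of members called for PI103 with PD0325901 against PD0325901 was 3, and became 5 with the replicate block, 0 with only the groups compared and 1 to 5 with a library left out. The block, which follows the batch in the labels, added 7 calls, each given beside its result, and changed no other call. Leaving out a library kept 391 of 400 member results against control. Counts over all genes moved by more than 1.5 times as follows. PI103 with oxozeaenol against PI103 went from 2553 to 4116 with only the groups compared. Against oxozeaenol it went from 2074 to 1110 and 1298 without replicates 1 and 3 of that combination, and to 1331 without replicate 3 of oxozeaenol. Against the mean it went from 555 to 997 with the block, 858 with only the groups compared, and 238, 252 and 281 without replicates 1, 3 and 4 of that combination. PI103 with PD0325901 against PD0325901 went from 2521 to 1210 with only the groups compared, 1529 without replicate 1 of the combination and 1384 without replicate 3 of PD0325901. Without replicate 2 of that combination, its count against the mean went from 3065 to 1483, and against the other combination from 4170 to 2701. PD0325901 against oxozeaenol went from 3976 to 2312 with only the groups compared and 2425 without replicate 2 of PD0325901. The causes were not tested. Upper-quartile scaling moved the median of all genes to 0.15 for PI103 with PD0325901 against control, from 0.01. It moved the share of higher calls there from 49.6% to 61.0%, against PI103 from 48.5% to 59.8%, against PD0325901 from 44.6% to 59.95%, against the mean from 49.3% to 66.1% and against the other combination from 47.8% to 62.6%. Depth was at least 38057638 counts in every library, and the least counted members, EPHB3 and EFNB1, had the widest intervals.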
